A study of Mus musculus with 12 samples.

Results

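The Hippo pathway and its TEAD transcription factors were examined in the tibialis anterior, a muscle of the lower hindlimb, as a set of 10 genes among the 24421 entries of the count table. They were chosen by gene symbol: the co-activator genes Yap1 and Wwtr1, the TEAD genes Tead1, Tead2, Tead3 and Tead4, and the kinase genes Lats1, Lats2, Stk3 and Stk4. All 10 were listed, and all 10 passed the filter on low counts that left 13937 genes to test. The study sequenced mRNA from 12 male mice aged 4 months, 6 of strain C57Bl/6 (wild type, WT) and 6 of strain mdx/mTR. Mice with the mdx allele lack full-length dystrophin, the protein of Dmd that links the muscle fibre's cytoskeleton to its membrane and matrix, in every cell from birth, and mTR names the telomerase RNA gene. The labels give neither the breeding generation of the mdx/mTR mice nor whether the groups were littermates, and no group carries 1 of the 2 alleles alone, so effects of mdx and of mTR cannot be told apart.

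Hippo signalling is a chain of kinases that holds back growth. The MST kinases, encoded by Stk4 and Stk3, activate the LATS kinases, which phosphorylate YAP (gene Yap1) and TAZ (gene Wwtr1) and keep them in the cytoplasm. When the chain is quiet, for instance in cells under mechanical tension, YAP and TAZ enter the nucleus. They do not bind DNA themselves but act through the TEAD proteins, which recognise a short DNA element named MCAT in muscle genes. In muscle the pathway is known for roles in satellite cells, in fibre size and in the response to load. The activity of the kinases and the place of YAP and TAZ in the cell are set on the proteins, and mRNA counts do not measure either.

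Yap1, Wwtr1 and Tead3 rose in mdx/mTR muscle, by 1.26, 1.23 and 1.5 times, while the other TEAD genes and all 4 kinase genes did not pass the test. The 3 members called make up 30.0% of the set, and 25.0% of all genes tested were called higher in the same comparison (3479 of 13937, edgeR), or 48.3% in either direction. The count is therefore near the background and says nothing particular about the set, and 0 members were called lower where 23.4% of all genes were. Without overlap between the 6 WT and the 6 mdx/mTR mice were 2 members, Yap1 and Tead3, or 20% of the set, against 25.2% of all genes tested in either direction and 12.6% on the higher side. The authors' deposited table called the same 3 members, with log2 fold changes of 0.32 for Yap1, 0.29 for Wwtr1 and 0.57 for Tead3, where 25.4% of its tested genes were called higher and 50.1% were called in all.

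**Figure D1:**
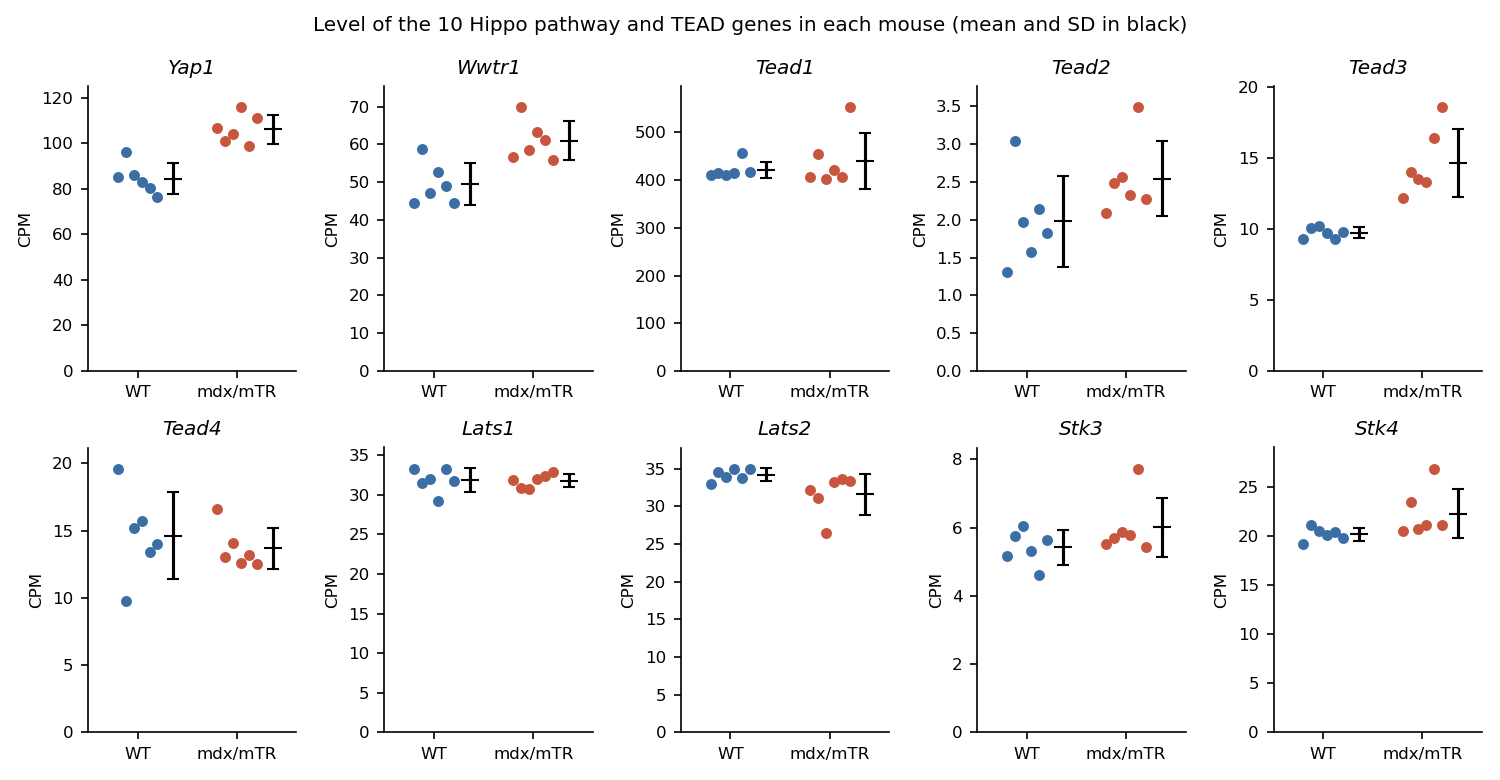
Normalised level (CPM, counts relative to the TMM-scaled library total) of each gene in the 6 WT mice (blue) and the 6 mdx/mTR mice (red), with the mean and SD in black and axes from 0. Yap1 and Tead3 show no overlap between the groups, while the Lats1 points of both groups lie between 29.2 and 33.3 CPM.

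The checks of the libraries were brief. Dmd, whose product the mdx allele removes, had a mean of 46.8 ± 7.20 CPM in mdx/mTR muscle and of 237 ± 6.90 CPM in the controls (± SD, 6 mice each). Terc, the telomerase RNA gene, had 2 counts over all libraries and checks nothing. The WT libraries held 36903560 to 40981012 counts and the mdx/mTR libraries 35136327 to 60330410. Mature fibre markers were abundant in every library, with a summed level of 131000 to 159000 CPM in WT and 101000 to 141000 CPM in mdx/mTR. The TMM scaling factors, which correct for differences in composition, did not overlap between groups (0.929 to 0.971 in WT, 0.988 to 1.16 in mdx/mTR). With library totals alone in their place, the middle of the log2 fold changes over all genes moved up by 0.16, and the balance over all genes went from 3479 higher and 3257 lower to 5596 higher and 1560 lower. All changes given here, unless said otherwise, refer to TMM-scaled libraries.

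The sequences before the start sites of the 3 members that rose are shown here because each holds the core letters of the MCAT element, CATTCC, which read GGAATG on the opposite strand. The 250 bases before each start in RefSeq's annotation (GRCm38.p6) were searched on both strands, after the changes of the members were known. The letters were found for 3 of the 7 members that the promoter table covers (42.9%), Yap1, Wwtr1 and Tead3, against 14.4% of the 27025 genes of that table. For Tead2, Lats1, Lats2 and Stk4 no match lay in this window. Tead1, Tead4 and Stk3 were not matched in the table. In the lists described below, of the genes that the table covers, 4 of 18 upstream genes (22.2%) and 1 of 8 STRIPAK genes (12.5%) held the letters. So did 7 of 11 partner genes (63.6%), 6 of 14 target genes (42.9%) and all 4 muscle genes chosen for this element. Among the partner and target genes with the letters were genes that fell, Crim1 (at -79) and Vgll4 (at -82). Others were not called, such as Ptpn14 and Amotl2, which stand in both lists. A match describes the letters only, and no binding was measured. Ankrd1, a target gene described below, is shown beside them. Each sequence runs 5′ to 3′ on the gene's strand and ends at the base before the start, with CATTCC or GGAATG in capitals.
Yap1, chr9:8004597-8004846, minus strand: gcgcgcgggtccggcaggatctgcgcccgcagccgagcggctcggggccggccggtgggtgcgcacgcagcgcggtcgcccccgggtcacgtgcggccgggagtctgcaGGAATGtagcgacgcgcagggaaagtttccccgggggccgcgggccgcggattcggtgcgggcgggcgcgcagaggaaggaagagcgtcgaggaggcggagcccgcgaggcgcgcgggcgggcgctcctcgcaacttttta
Wwtr1, chr3:57575911-57576160, minus strand: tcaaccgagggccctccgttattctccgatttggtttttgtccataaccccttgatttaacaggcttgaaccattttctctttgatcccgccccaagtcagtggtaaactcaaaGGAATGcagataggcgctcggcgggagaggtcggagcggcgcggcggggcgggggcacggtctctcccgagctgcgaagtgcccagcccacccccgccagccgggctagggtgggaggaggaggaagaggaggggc
Tead3, chr17:28350806-28351055, minus strand: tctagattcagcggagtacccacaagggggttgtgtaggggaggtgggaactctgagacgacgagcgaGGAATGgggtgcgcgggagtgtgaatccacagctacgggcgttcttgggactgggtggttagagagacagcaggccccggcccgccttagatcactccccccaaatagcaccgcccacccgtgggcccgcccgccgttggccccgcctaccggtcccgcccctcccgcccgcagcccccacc
Ankrd1, chr19:36119845-36120094, minus strand: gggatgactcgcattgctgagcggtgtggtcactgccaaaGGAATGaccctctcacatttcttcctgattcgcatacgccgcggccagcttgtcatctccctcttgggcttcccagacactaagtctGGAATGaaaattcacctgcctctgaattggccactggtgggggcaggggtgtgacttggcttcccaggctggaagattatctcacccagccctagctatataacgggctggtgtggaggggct
Counted back from the start site, the match begins 141 bases before it in Yap1 (position -141), at -136 in Wwtr1 and at -182 in Tead3, each time as GGAATG. Ankrd1 holds GGAATG at -210 and at -123. Tead3 has 3 annotated starts, and the window of the second holds CATTCC at -123 and at -114.

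The co-activators come first. Yap1 (GENCODE M21, GRCm38, chr9:7931999-8004596, minus strand) had its lowest level at 76.5, median at 84.2 and highest at 96.1 CPM in WT, against 98.9, 105 and 116 CPM in mdx/mTR. Every mdx/mTR mouse lay above every WT mouse, and the nearest pair was WT replicate 2 and mdx/mTR replicate 5. The means were 84.6 ± 6.62 and 106 ± 6.36 CPM (± SD, 6 mice each), a log2 fold change of 0.33 ± 0.06 (SE; edgeR quasi-likelihood test, adjusted p = 4.3e-04) with a 95% interval of 0.21 to 0.45. Exons of a gene on the opposite strand cover 1.25% of the exonic bases of Yap1, and strand handling is not given in the sources used here.

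Wwtr1 (chr3:57455649-57575910, minus strand), which encodes TAZ, the paralog of YAP, ran from 44.4 through a median of 48.1 to 58.9 CPM in WT and from 56.0 through 59.9 to 69.9 CPM in mdx/mTR. The groups overlapped: WT replicate 2, again the highest WT mouse, lay above 3 mdx/mTR mice, and without that library the log2 fold change was 0.36. That library also had the lowest mature fibre marker level of the WT mice (131000 CPM). Its level of fibroblast-like progenitor markers, described below, was the highest of them (1590 CPM, with WT replicate 4 at 1530 CPM). The same library was the highest WT mouse for endothelial, smooth muscle and pericyte, Schwann, tendon and T cell markers. It was not the highest for macrophage, adipocyte, regenerating fibre or satellite cell and myoblast markers. With all 12 mice the means were 49.4 ± 5.60 and 61.0 ± 5.17 CPM (± SD, 6 mice each), with a log2 fold change of 0.30 ± 0.08 (SE) and an edgeR adjusted p of 0.00478. A difference in the proportion of the co-activators was not detected. The log2 ratio of Wwtr1 to Yap1 counts within a library, which no scaling of libraries can change, was -0.78 ± 0.11 in WT and -0.80 ± 0.17 in mdx/mTR (± SD, 6 mice each; two-sided exact permutation p = 0.766, adjusted p = 0.919 over the 6 ratios tested).

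The TEAD genes encode the DNA-binding partners of both co-activators. Tead1 (chr7:112679318-112906807, plus strand) was by far the most abundant per length. Scaled by the longest coding transcript, it stood at 42.3 ± 1.81 CPM per kb in WT and made up 82.7% ± 1.63 of the summed per-length TEAD level (SD, n = 6). Its level ran from 411 through a median of 415 to 457 CPM in WT and from 402 through 414 to 553 CPM in mdx/mTR. In both groups 1 mouse stood above the rest, WT replicate 5 and mdx/mTR replicate 6, and the groups overlapped. The log2 fold change was 0.065 ± 0.076 (SE; 95% interval -0.10 to 0.23; edgeR adjusted p = 0.504), and it was -0.0097 without mdx/mTR replicate 6.

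Tead3 (chr17:28331671-28350817, minus strand) showed the largest change of the 10 genes. WT mice lay close together, from 9.28 through a median of 9.74 to 10.2 CPM, and mdx/mTR mice ran from 12.2 through 13.8 to 18.6 CPM. No mdx/mTR mouse fell within the WT range, and the spread between mice was wider in mdx/mTR, with a coefficient of variation of 16.2% against 4.09%. The means were 9.74 ± 0.398 and 14.7 ± 2.37 CPM (± SD, 6 mice each), with a log2 fold change of 0.59 ± 0.09 (SE; 95% interval 0.39 to 0.79; edgeR adjusted p = 2.0e-04).

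The shift of Tead3 was also seen against Tead1 inside each library. The log2 ratio of Tead3 to Tead1 counts was -5.43 ± 0.10 in WT and -4.91 ± 0.16 in mdx/mTR (± SD, 6 mice each), higher in 6 of 6 mdx/mTR mice than in any WT mouse. The difference of 0.52 had a two-sided exact permutation p of 0.00216, the smallest that 6 mice against 6 can give, and an adjusted p of 0.013 over the 6 ratios. The adjusted p was 0.0779 for a difference between medians and 0.188 when mice were paired by replicate number, where 6 pairs cannot give an exact p under 0.03125 before adjustment. As a share of the summed per-length TEAD level, Tead3 stood at 6.88% ± 0.463 in WT and 9.65% ± 0.977 in mdx/mTR.

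**Figure D2:**
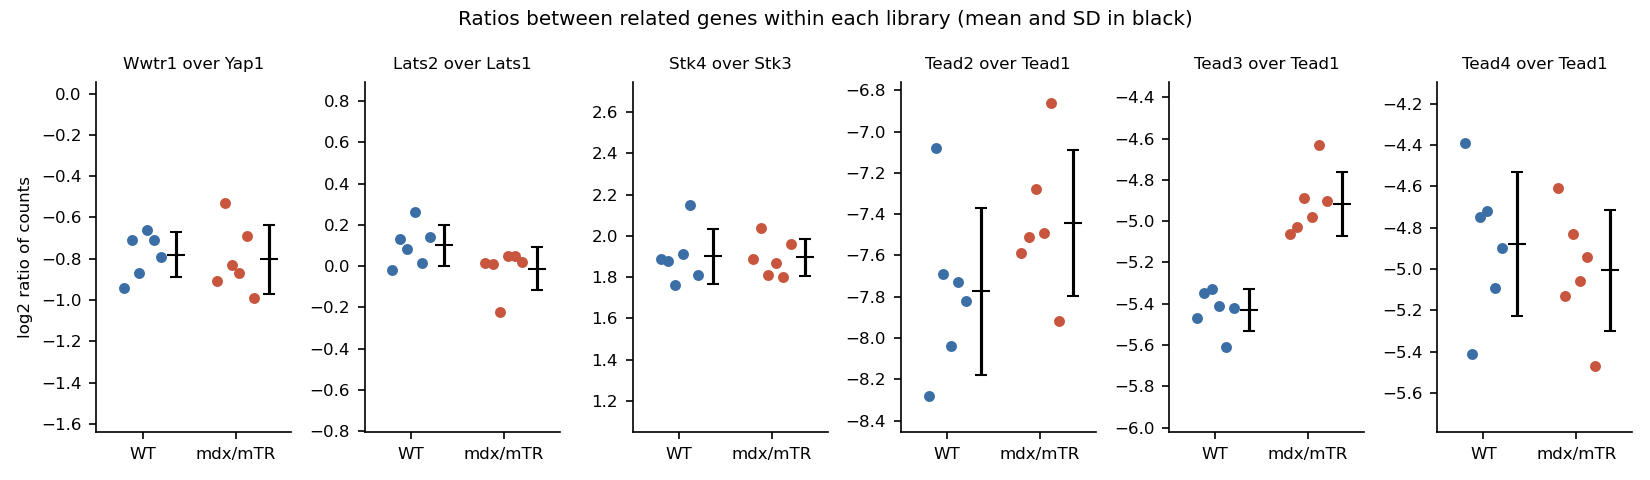
Log2 ratio of the counts of related genes within each library, for 6 WT mice (blue) and 6 mdx/mTR mice (red), with the mean and SD in black; every panel spans the same height. Tead3 over Tead1 separates the groups (-5.61 to -5.33 in WT, -5.06 to -4.63 in mdx/mTR), and the groups overlap in the other 5 panels.

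Tead4 and Tead2 did not pass the test. Tead4, a TEAD gene known from myoblast differentiation, ran from 9.77 to 19.6 CPM in WT and from 12.5 to 16.6 CPM in mdx/mTR, so that every mdx/mTR mouse lay inside the WT range. Its log2 fold change was -0.10 ± 0.13 (SE; 95% interval -0.38 to 0.18; edgeR adjusted p = 0.565), and the sign turned without WT replicate 1 (0.0027). Tead2 was the least abundant member, with 1.31 to 3.04 CPM in WT and 2.09 to 3.49 CPM in mdx/mTR, and its libraries held between 47 and 164 counts. The groups overlapped, with WT replicate 2 (3.04 CPM) above 5 mdx/mTR mice and WT replicate 5 (2.14 CPM) above mdx/mTR replicate 1 (2.09 CPM). Its log2 fold change of 0.36 ± 0.19 (SE; 95% interval -0.045 to 0.76) had an edgeR adjusted p of 0.13, and without WT replicate 2 it was 0.52 with an adjusted p of 0.0189. Neither ratio to Tead1 passed (Tead2, difference 0.33, exact permutation p = 0.152, adjusted p = 0.303; Tead4, -0.13, exact permutation p = 0.494, adjusted p = 0.74). Tead3 and Tead4 share 0.367% and 0.33% of their 50-base stretches with each other, so few reads could be split between them.

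None of the kinase genes passed the test. Lats1 (chr10:7681214-7716460, plus strand) ran from 29.2 to 33.3 CPM in WT mice and from 30.7 to 32.9 CPM in mdx/mTR, and the mdx/mTR mice all lay within the WT range. Its log2 fold change was -0.0018 ± 0.043 (SE; edgeR adjusted p = 0.976), with a 95% interval of -0.093 to 0.09 that leaves room for a change of 0.937 to 1.06 times. Lats2 (chr14:57689662-57758388, minus strand) ran from 32.9 to 35 CPM in WT mice and from 26.4 to 33.6 CPM in mdx/mTR, with 3 mdx/mTR mice below every WT mouse and mdx/mTR replicate 3 lowest. Its log2 fold change was -0.11 ± 0.06 (SE; 95% interval -0.23 to 0.0096; edgeR adjusted p = 0.118), and -0.066 without mdx/mTR replicate 3. Of the 50-base stretches of its transcript, 56.5% also occur in Gm49361, an overlapping gene on the same strand, so the level of Lats2 is uncertain to the extent that reads were dropped or split there.

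The MST kinase genes were likewise not called. Stk4 (MST1, chr2:164070322-164155524, plus strand) ran from 19.2 to 21.2 CPM in WT and from 20.5 to 26.9 CPM in mdx/mTR. Stk3 (MST2, chr15:34875496-35178921, minus strand) ran from 4.60 to 6.05 CPM in WT and from 5.42 to 7.73 CPM in mdx/mTR. In both genes mdx/mTR replicate 5 was the highest of the 12 mice. The log2 fold changes were 0.14 ± 0.07 for Stk4 (SE; 95% interval -0.00045 to 0.29; edgeR adjusted p = 0.0924) and 0.15 ± 0.10 for Stk3 (SE; 95% interval -0.068 to 0.36; edgeR adjusted p = 0.244). Without mdx/mTR replicate 5 they were 0.081 and 0.058. The ratios of Stk4 to Stk3 (difference -0.0034, exact permutation p = 0.97, adjusted p = 0.97) and of Lats2 to Lats1 (difference -0.12, exact permutation p = 0.0649, adjusted p = 0.195) did not pass.

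**Figure D3:**
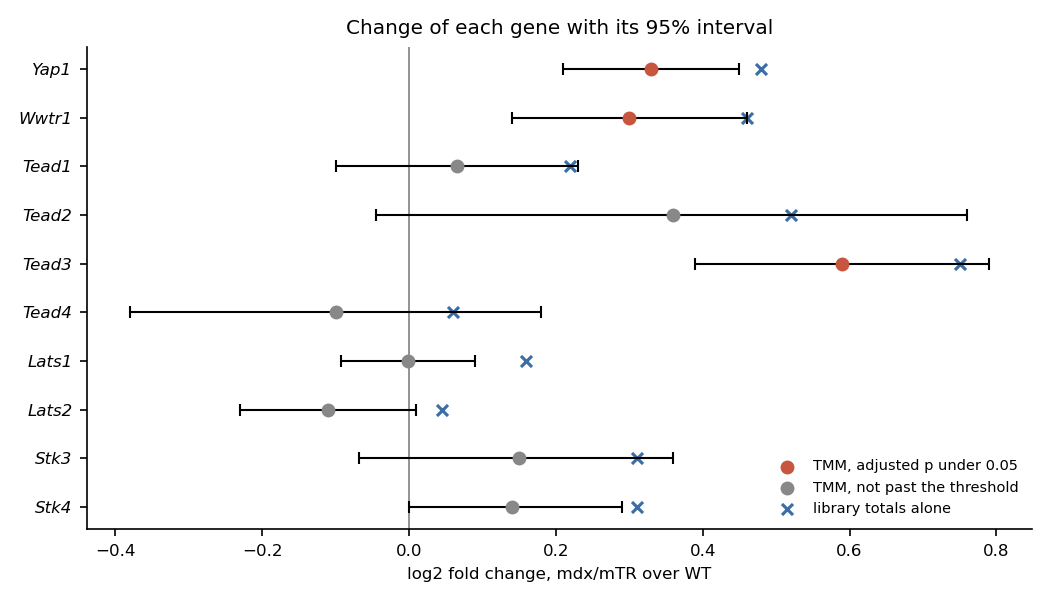
Change of each gene in mdx/mTR relative to WT on the log2 scale with its 95% interval under TMM scaling (red where the adjusted p was under 0.05, grey otherwise) and the value with library totals alone (blue crosses). The intervals of Yap1, Wwtr1 and Tead3 lie above 0, and the crosses lie to the right of the points for all 10 genes.

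The scaling of libraries sets how many members pass. With library totals alone 6 members were called higher, Yap1, Wwtr1 and Tead3 together with Tead1 (0.22, edgeR adjusted p = 0.0211), Lats1 (0.16, adjusted p = 0.0208) and Stk4 (0.31, adjusted p = 0.0153), where 40.2% of all genes were called higher, 11.2% lower and 51.3% in all under the same scaling. The signs of Lats1, Lats2 and Tead4 turned positive there. Yap1, Wwtr1 and Tead3 stayed past the threshold in each of the 20 other fits, with log2 fold changes of 0.30 to 0.48, 0.26 to 0.46 and 0.51 to 0.75 and a largest adjusted p of 0.0131, for Wwtr1.

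Levels between genes were compared per length only. In WT the order after Tead1 was Yap1 (20.3 ± 1.59 CPM per kb), Wwtr1 (10.5 ± 1.19) and Lats2 (6.58 ± 0.164), then Tead4 (4.75 ± 1.04), Lats1 (4.42 ± 0.212), Stk4 (3.86 ± 0.127) and Tead3 (3.51 ± 0.144), and last Stk3 (1.86 ± 0.175) and Tead2 (0.582 ± 0.177; SD, n = 6 each). From Lats2 to Tead3 neighbouring genes overlapped or met in their ranges over the 6 mice, while Tead1, Yap1, Wwtr1, Stk3 and Tead2 did not overlap with a neighbour. In mdx/mTR Tead3 stood at 5.28 ± 0.856 CPM per kb, between Lats2 (6.09 ± 0.526) and Tead4 (4.44 ± 0.497), and its range of 4.38 to 6.69 overlapped both.

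A list called upstream here held 20 genes, mostly scaffolds, activating kinases and cell-surface cadherins that lie upstream of the MST and LATS kinases. It also held Stk38 and Stk38l, relatives of LATS, and Mob1a and Mob1b, partners of LATS. Its shares therefore describe the list, not upstream regulators alone. Of the 19 tested, 7 were higher and 5 lower in mdx/mTR, with a median log2 fold change of 0.12 against 0.014 over all genes tested. These are 36.8% and 26.3% of the list, beside 25.0% higher and 23.4% lower over all genes. The rises included Map4k4 (0.57 ± 0.10 SE, edgeR adjusted p = 4.4e-04) and Taok2 (0.27 ± 0.045, adjusted p = 3.1e-04), kinases that can act on LATS in parallel to MST, and Stk38 (0.20 ± 0.036, adjusted p = 5.1e-04), a relative of LATS. The falls were led by Nf2, which encodes the scaffold merlin, from 167 ± 7.85 to 130 ± 8.90 CPM (± SD, 6 mice each; -0.36 ± 0.053 SE, edgeR adjusted p = 1.1e-04), with every mdx/mTR mouse below every WT mouse. Map4k2 (-0.35) and Stk38l (-0.28) fell as well, but with library totals alone neither passed (edgeR adjusted p = 0.078 and 0.15), and 9 genes of the list were then called higher and 1 lower, where 40.2% and 11.2% of all genes were. Sav1, the scaffold of the MST kinases, had a log2 fold change of 0.14 (edgeR adjusted p = 0.102), which passed with upper quartile scaling (0.18, adjusted p = 0.0387), with library totals alone (0.30, adjusted p = 0.00674) and without mdx/mTR replicate 2 (0.19, adjusted p = 0.0138). Taok1 had -0.08 (edgeR adjusted p = 0.089). It passed in DESeq2 (-0.085, adjusted p = 0.0356) and without mdx/mTR replicate 1 (-0.10, adjusted p = 0.0396), and its sign turned with library totals alone (0.075).

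The STRIPAK phosphatase complex, which removes the activating phosphate of the MST kinases, had 2 of 9 genes higher and 2 lower (22.2% each, near the 25.0% and 23.4% of all genes), with a median of -0.015. Slmap, the subunit that brings STRIPAK to MST, fell from 94.1 ± 5.92 to 74.5 ± 7.21 CPM (± SD, 6 mice each; -0.34 ± 0.065 SE on the log2 scale, edgeR adjusted p = 8.6e-04), and there was no overlap between the groups. Strn3 fell by 0.21 on the log2 scale (edgeR adjusted p = 0.00534). Strip2 rose at a low level (0.71, edgeR adjusted p = 0.00778). Strn4, at 21.7 ± 1.57 CPM in WT, rose as well (0.19, edgeR adjusted p = 0.0467), but its call was lost when any 1 of 8 mice was left out, with no filter (adjusted p = 0.0577) and in limma-voom (adjusted p = 0.0571). With library totals alone Strn3 did not pass (-0.061, adjusted p = 0.182), and 6 genes of this list were called higher and 1 lower, beside 40.2% and 11.2% of all genes.

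Among 14 partners of YAP, TAZ and TEAD, 13 were tested, 1 was higher (7.69%) and 4 were lower (30.8%), beside 25.0% and 23.4% of all genes, with a median of -0.015. The vestigial-like genes, whose products bind TEAD at the surface that YAP and TAZ use, differed from each other in direction. Vgll3 rose from 4.41 ± 0.815 to 7.24 ± 1.16 CPM (± SD, 6 mice each; 0.72 ± 0.13 SE, edgeR adjusted p = 6.9e-04), and its groups did not overlap. Vgll4, known as a repressor of TEAD, fell from 11.1 ± 1.32 to 8.83 ± 0.943 CPM (-0.33 ± 0.092 SE, adjusted p = 0.00934), a call lost with library totals alone (-0.18, adjusted p = 0.112). Vgll2, known for its place in skeletal muscle, ran from 40.6 to 53.5 CPM in WT and from 41.0 to 84.0 CPM in mdx/mTR (0.28, adjusted p = 0.167), and it passed with library totals alone (0.44, adjusted p = 0.0406). Vgll1 had 0 counts in all libraries. Limd1, which encodes a LIM protein that restrains LATS, fell (-0.45, adjusted p = 1.0e-04), as did Csnk1d (-0.17, adjusted p = 0.0035), whose kinase marks YAP for degradation and which did not pass with library totals alone (-0.014). Ptpn14 (0.018, adjusted p = 0.819) and Amotl2 (-0.13, adjusted p = 0.434), which also stand among the target genes, did not pass, though Ptpn14 did with library totals alone (0.17, adjusted p = 0.0369), where the sign of Amotl2 turned (0.024). With library totals alone 5 genes of the list were called higher and 1 lower, against 40.2% and 11.2% of all genes.

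**Figure D4:**
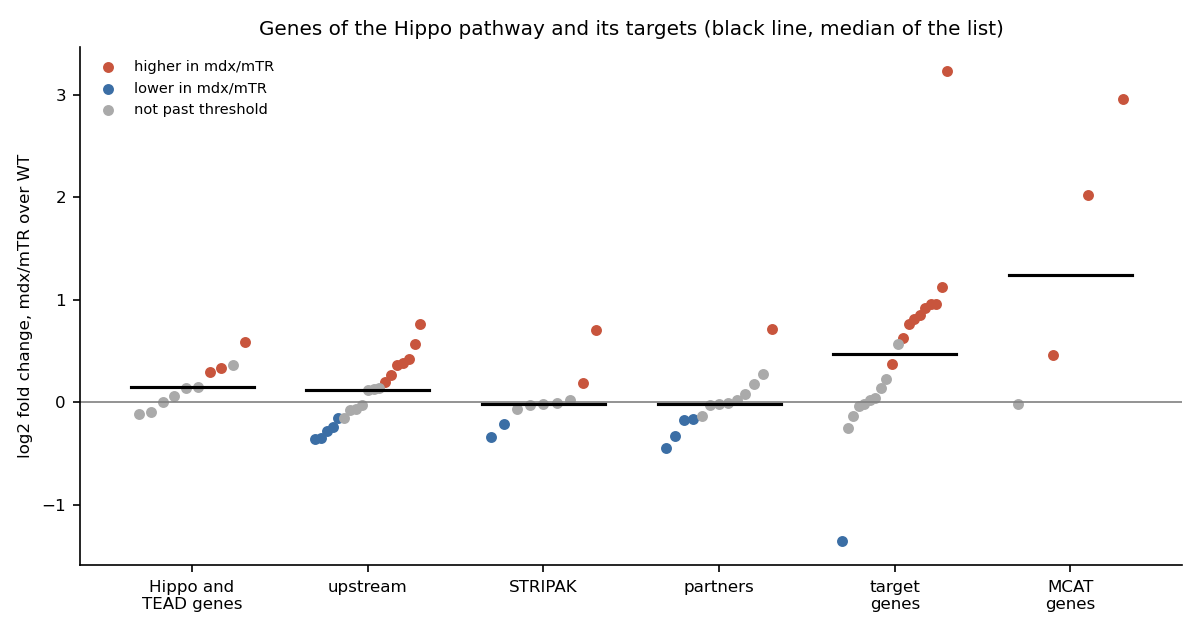
Log2 fold change of each tested gene, by list, in red where higher and blue where lower in mdx/mTR at an adjusted p under 0.05, with the median of each list as a black line. The target genes have a median of 0.47 with Ankrd1 highest at 3.24 and Crim1 lowest at -1.36, while the STRIPAK and partner lists have medians of -0.015.

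Target genes of YAP and TAZ, 21 in a list drawn up mostly from cultured cells and cancers and kept apart from the members, were read in the same fit. Lats2, also a target, was left out of the list as a member, and it did not pass (-0.11, edgeR adjusted p = 0.118). Of the 20 listed genes tested, 10 were higher (50%, against 25.0% of all genes) and 1 was lower (5%, against 23.4%). The median log2 fold change was 0.47 against 0.014 over all genes. The list was chosen with earlier results of these data known, so these shares describe it only. With library totals alone 12 genes of the list were called higher and 1 lower, where 40.2% and 11.2% of all genes were. Ankrd1, a target that is also a stress-responsive ankyrin-repeat protein of striated muscle, ran from 12.8 through a median of 13.5 to 20.5 CPM in WT and from 101 through 136 to 200 CPM in mdx/mTR (3.24 ± 0.17 SE, edgeR adjusted p = 3.1e-08). Ctgf (Ccn2) and Cyr61 (Ccn1), secreted matricellular proteins and the usual readouts of YAP activity, rose less and overlapped between groups. Ctgf went from 18.9 ± 5.46 to 29.2 ± 7.29 CPM (± SD, 6 mice each; 0.63 ± 0.19 SE, edgeR adjusted p = 0.0131) and Cyr61 from 39.7 ± 11.4 to 67.2 ± 24.2 CPM (0.76 ± 0.22 SE, adjusted p = 0.0116). Axl, a receptor tyrosine kinase, rose by 0.92 on the log2 scale (adjusted p = 1.9e-05) and Ccdc80, a secreted matrix protein, by 1.13 (adjusted p = 3.6e-05). Crim1 went the opposite way, from 75.6 ± 10.6 to 29.5 ± 3.36 CPM (-1.36 ± 0.097 SE, adjusted p = 3.6e-07), with no overlap. Of 4 muscle genes whose promoters are textbook cases of the MCAT element, Tnnt2 (2.96, adjusted p = 3.1e-05), Myh7 (2.02, adjusted p = 0.00445) and Acta2 (0.46, adjusted p = 0.0167) were higher and Acta1 was not called (-0.02, adjusted p = 0.87). The groups overlapped for Myh7 (2.84 to 4.5 CPM in WT, 2.82 to 29.9 CPM in mdx/mTR), which did not pass in limma-voom (1.65, adjusted p = 0.0642). They also overlapped for Acta2 (34.3 to 61.0 CPM in WT, 48.4 to 83.9 CPM in mdx/mTR), which also stands among the smooth muscle markers below.

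In bulk muscle, fewer cells of a type and less RNA per cell cannot be told apart, and markers of several cell types that could carry these genes differed between the groups. The counts of markers called stand beside 25.0% higher and 23.4% lower over all genes tested, and each list is short. All 6 macrophage markers tested were higher, with a summed level of 57.8 to 105 CPM in WT and 183 to 555 CPM in mdx/mTR. Of 6 markers of fibro-adipogenic progenitors, the fibroblast-like cells of muscle, 5 were higher (881 to 1590 against 2200 to 4380 CPM). All 5 markers of regenerating fibres were higher (16.3 to 18.1 against 77.0 to 482 CPM), and of 5 markers of satellite cells and myoblasts 3 were higher and 1 lower (49.7 to 66.1 against 59.0 to 110 CPM). Endothelial markers (434 to 574 against 342 to 444 CPM) had 3 of 5 genes lower and 0 higher. Mature fibre markers had 1 of 6 lower and 0 higher, no more than over all genes. Of 5 smooth muscle and pericyte markers 1 was higher and 2 lower (318 to 439 against 323 to 384 CPM), of 4 Schwann cell markers 3 were lower (28.7 to 36.3 against 14.6 to 23.4 CPM), all 3 tendon markers were higher (6.25 to 14.0 against 12 to 17.7 CPM), and 0 of 3 adipocyte markers were called (6.56 to 10.6 against 4.58 to 15.2 CPM). The T cell markers Cd3e, Cd3d and Cd8a were too low to test, at means of 0.165, 0.0712 and 0.104 CPM in mdx/mTR, and the fourth, Cd4, was higher (0.231 ± 0.143 against 1.68 ± 0.636 CPM; summed level 0.139 to 0.67 against 1.47 to 3.15 CPM). No marker was at 0 counts in all libraries. Of the 6 mdx/mTR mice, replicate 5 had the highest summed level of macrophage (555 CPM), fibro-adipogenic progenitor (4380 CPM) and regenerating fibre markers (482 CPM). It was the highest for Stk3, Stk4 and Tead2, stood at 16.4 CPM for Tead3 and was the lowest for Yap1 (98.9 CPM). Replicate 6, the highest for Tead1 and Tead3 (18.6 CPM), had the lowest macrophage level (183 CPM). Wwtr1 was highest in replicate 2 (69.9 CPM; macrophage 368 CPM, progenitors 4150 CPM) and Yap1 in replicate 4 (116 CPM, with 287 and 2200 CPM). The part of these cell types in the rises of Yap1, Wwtr1, Tead3 and the target genes was not tested.

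Genes with the most similar pattern over the 12 mice were looked up for the co-activators and TEAD genes among 12197 genes, by the root mean square difference in log2(CPM + 0.5) after each gene was centred on its own mean. For Yap1 these were Reep5 (0.0398) and Arhgap6 (0.0512), where the median gene differed by 0.263. Erbb2ip (0.0629) and Igsf3 (0.081) came closest to Wwtr1, and St3gal1 (0.0832) and Smad1 (0.0869) to Tead3. For Tead1 they were 2500002B13Rik (0.0628) and Cwc22 (0.079), for Tead2 Zbtb7c (0.122) and Spaca6 (0.131), and for Tead4 Slc15a4 (0.141) and Mettl4 (0.145). The measure takes in the difference between the groups, so a similar fold change in these genes is part of how they were chosen.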

How the data were processed

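mRNA of the tibialis anterior of 6 WT and 6 mdx/mTR mice was analysed, with groups and replicate numbers from the labels. Nothing in them says how the mice relate to each other, so p-values measure the spread between these samples. The authors deposited a table of counts per gene symbol with 1 column per mouse. Per the submitters' processing notes, FastQC, STAR, DESeq2 and the build mm10 were used. The counter, annotation, strand handling and versions are not given in the sources used here. A second deposited table gives the authors' results per gene: p-values, a Wald score, a log2 fold change, its error and a mean signal, under DESeq2's column names per the file headers.

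Counts were tested in edgeR 4.0.16 (R 4.3.3): filterByExpr (13937 genes, 99.97% of counts), TMM scaling, glmQLFit and glmQLFTest with group as the only term, and Benjamini-Hochberg adjustment over all genes tested at 0.05. The SE is the log2 fold change divided by the square root of F, and intervals use the test's total degrees of freedom (residual plus prior). CPM uses TMM-scaled totals. Lengths are those of the longest coding transcript in GENCODE M21, and promoters came from RefSeq (GRCm38.p6). Ratios of counts (0.5 added) were compared by two-sided exact permutation over 924 splits and adjusted over 6 ratios (Benjamini-Hochberg, scipy 1.17.1). A count of 3, the limit that a count of 0 allows, is 0.0461 to 0.0838 CPM, for counting error only. Replicates differed by more than sampling noise (chi-square per degree of freedom 8.87 to 116). Within WT, pairs with replicate 2 gave 41.6 to 54.3 and the remaining pairs 8.87 to 17.2.

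The members and lists were chosen with earlier results of these data known. Named genes are the members, the 3 smallest p-values per list and direction, a fixed set of 11 pathway genes, Dmd, and for the co-activators and TEAD genes the 2 genes of most similar pattern with a mean of at least 1 CPM. On simulated counts for the 13937 genes with 200 changed, edgeR recovered 91.8% of changes of 1 on the log2 scale and 99% of changes of 2, with 9 false calls. Smaller changes, such as those of most members, were not simulated. Nor was a setting in which 48.3% of genes are called, as here, so the simulation does not test the scaling. Alternatives were 3 other scalings, 2 other filters, DESeq2 1.42.0, limma-voom (limma 3.58.1), a replicate block and each mouse left out in turn.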

Additional observations from a re-analysis of the deposited data

Results flagged for a closer look

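In each group of 6 mice the most extreme value was compared with its nearest neighbour, as a share of the spread from lowest to highest, and called apart past Dixon's 95% critical value. That was met by 6 of 32 sets of values, where chance gives 1.6, and the same libraries enter all of these sets.

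Tead1 stood at 457 CPM in WT replicate 5 while the remaining WT mice lay between 411 and 418 CPM (share 0.849), and at 553 CPM in mdx/mTR replicate 6 while the remaining mdx/mTR mice lay between 402 and 455 CPM (share 0.644). In mdx/mTR replicate 5, Stk3 reached 7.73 CPM above a range of 5.42 to 5.88 (share 0.801) and Tead2 reached 3.49 CPM above a range of 2.09 to 2.57 (share 0.659). Lats2 was lowest in mdx/mTR replicate 3, where 26.4 CPM lay under a range of 31.1 to 33.6 (share 0.649). The log2 ratio of Lats2 to Lats1 in that mouse was -0.22, under a range of 0.0086 to 0.051 (share 0.841). None of these 6 values belongs to Yap1, Wwtr1 or Tead3.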

How the results depend on the processing

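Yap1, Wwtr1 and Tead3 kept their direction and passed the threshold in all 20 alternatives. With library totals alone, 6 members, 6 STRIPAK genes and 5 partners were higher, and 1 upstream gene, 1 STRIPAK gene and 1 partner were lower. Log2 fold changes were then 0.22 for Tead1, 0.06 for Tead4, 0.16 for Lats1, 0.045 for Lats2, 0.31 for Stk4, 0.024 for Amotl2 and 0.075 for Taok1. Upper quartile scaling gave 0.039 for Lats1 and 0.18 for Stk4 (edgeR adjusted p = 0.0386), and a minimum of 1 CPM gave 0.012 for Lats1. Called STRIPAK genes numbered 1 on the higher side with no filter and in limma-voom, and called target genes 2 on the lower side with no filter and in DESeq2. The log2 ratio of Stk4 to Stk3 differed by 0.0048 with 5 added to each count, and that of Tead3 to Tead1 by 0.48 between medians. The causes were not tested.

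With 1 mouse left out at a time, 3 to 4 members were higher (Tead2 joined without WT replicate 2), 1 to 2 STRIPAK genes and 1 to 2 partners were higher, and 1 to 2 targets were lower. Log2 fold changes ran from -0.0097 to 0.09 for Tead1, 0.25 to 0.52 for Tead2, -0.19 to 0.0027 for Tead4, -0.028 to 0.01 for Lats1 and -0.0095 to 0.043 for Ptpn14. Differences in log2 ratio ran from -0.08 to 0.012 for Wwtr1 to Yap1 and from -0.033 to 0.046 for Stk4 to Stk3.

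The labels do not say whether replicate numbers pair the mice. Deviations of same-numbered mice correlated at -0.155 to 0.354, above 0.1 in 2 of 6 pairs. Mice with different numbers were not compared in this way, so these values cannot settle it. With a replicate block 6420 genes were called against 6736 without, and 3 members (0.33 for Yap1, 0.31 for Wwtr1, 0.58 for Tead3). Paired by number, the Tead3 to Tead1 difference was 0.52 with an exact sign-flip permutation adjusted p of 0.188. Low counts limit Tead2 most, with 47 in WT replicate 1, where its count was lowest.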
